A study of Arabidopsis thaliana with 5 samples.

Results

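The genes described here are the nuclear genes of Arabidopsis thaliana that encode the light-harvesting antenna, the photosystem subunits and the small subunit of Rubisco. They were chosen by name from the LHCB, LHCA, PSA, PSB and RBCS families, not by measured values, though earlier results of these data were known. These are 45 of the 25433 loci with a matched probe on the array. They comprise 14 LHCB genes for the antenna of photosystem II, 6 LHCA genes for the antenna of photosystem I, 12 PSA genes for photosystem I, 9 PSB genes for photosystem II and 4 RBCS genes. The tissue was the cotyledon, the seed leaf, of seedlings 7 days old grown in long days. Of the 5 samples, 3 were from the line ckg and 2 from Col-0, the wild type, and each was hybridised alone to 1 Agilent array. The genotype label of the mutant reads cgr and its sample titles ckg. The kind and position of the lesion and the number of seedlings behind each sample are not given in the sources used here. From outside knowledge, the line was taken to carry a mutation in CKG (AT5G50915), which encodes a transcription factor of the basic helix-loop-helix family. The comparison asked whether transcripts of the photosynthetic apparatus differed between ckg and Col-0 cotyledons.

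Both photosystems are protein complexes of the thylakoid membrane, built from subunits encoded in the plastid and in the nucleus. Antenna proteins bind chlorophyll and pass excitation energy to the reaction centres, and Rubisco fixes carbon dioxide in the Calvin-Benson cycle with large subunits made in the plastid and small subunits made in the cytosol. The nuclear genes belong to the most strongly expressed genes of green tissue, and light and signals from the plastid regulate them.

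The probe read for CKG gave processed signals of 6.46, 16.5 and 51.3 on the ckg arrays, against 1070 and 962 on the Col-0 arrays, and was well above background on 0 of 3 ckg and 2 of 2 Col-0 arrays. On ckg replicate 3, 52.41% of non-control spots were well above background, and on the other 4 arrays 66.67% to 69.97%. The lowest processed signal was 31.0 on ckg replicate 3 and 2.68 to 4.01 on the other 4 arrays. The CKG signal of 51.3 on ckg replicate 3 thus lay near the floor of that array. All ckg arrays shared slide 2 and scan 2 and both Col-0 arrays slide 1 and scan 1, and a slide difference and a genotype difference cannot be told apart. Guard cell (MYB60, FAMA, KAT1), vascular (SUC2, APL, XCP1) and epidermal markers (ATML1, PDF1) were well above background on all 5 arrays. On the log2 scale XCP1 (-0.66) and PDF1 (-0.51) were lower in ckg without overlap between genotypes. Both had an unadjusted p under 0.05 in limma's test, as did 9.81% of all tested genes in that direction, with adjusted p of 0.197 and 0.210. The other differences lay between -0.22 (SUC2) and 0.20 (ATML1). The shoot apex markers STM, WUS and CLV3 were not well above background on any array. The root markers were split. COBL9, CASP2 and TIP2;3 were well above background on 2 of 3 ckg and 2 of 2 Col-0 arrays. CASP1 was so on 1 array, and EXPA7 and RHD6 on none. Of the seed storage markers, CRU3 and SESA2 were well above background on 1 array each, and CRA1, SESA1 and OLEO1 on none. The part of differing cell types in the results was not tested, and in whole cotyledons fewer cells of a type and less RNA per cell cannot be told apart.

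Read from the brightest probe of each gene, the 45 genes as a group were slightly lower in ckg, by amounts close to the spread between arrays. In that reading 1 gene, LHCB2.3, stood apart at 2.44-fold lower. In 17 antenna genes with several probes, the median difference was -0.52 by the dimmest and -0.18 by the brightest probe. Dimmer probes of LHCB2.2, LHCB3 and LHCB1.5 were also over 2-fold lower, and dimmer probes of LHCB1.3, LHCB2.2, LHCB6 and PSAE1 over 2-fold higher. Each value below is log2 of the processed signal minus the 75th percentile of its array, called scaled log2 signal, read from the brightest probe of a gene. All 45 of these probes were well above background on all 5 arrays. The ckg minus Col-0 difference was negative for 34 genes and positive for 11, with a median of -0.16, against a median of -0.01 over all 18123 tested genes. Negative differences thus made up 75.6% of the group and 51.3% of all tested genes. In the authors' series table the corresponding medians were closer, -0.076 for the group and -0.039 for all tested genes. No gene of the group passed an adjusted p of 0.05 in limma's test (0 of 45, smallest adjusted p 0.0745), and neither did any gene on the array, a background of 0%. At an unadjusted p under 0.05, 6 of the 45 (13.3%) were lower in ckg, against 9.81% of all tested genes, a share near the background. That count was 13 of 45 without ckg replicate 3, a larger share than the 12.9% of all tested genes in that fit. Without ckg replicate 2 it was 2 of 45, a smaller share than the background of 7.68%. When all probes of a gene were averaged it was 17 of 45, a larger share than the background of 9.79%. None of the 45 was higher at that level, against 8.3% of all tested genes. The genotypes did not overlap, with ckg lower, for 15 of the 43 genes with a value on all arrays (34.9%), against 22.6% of all such genes. They did not overlap with ckg higher for 0, against 19.5%.

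**Figure D1:**
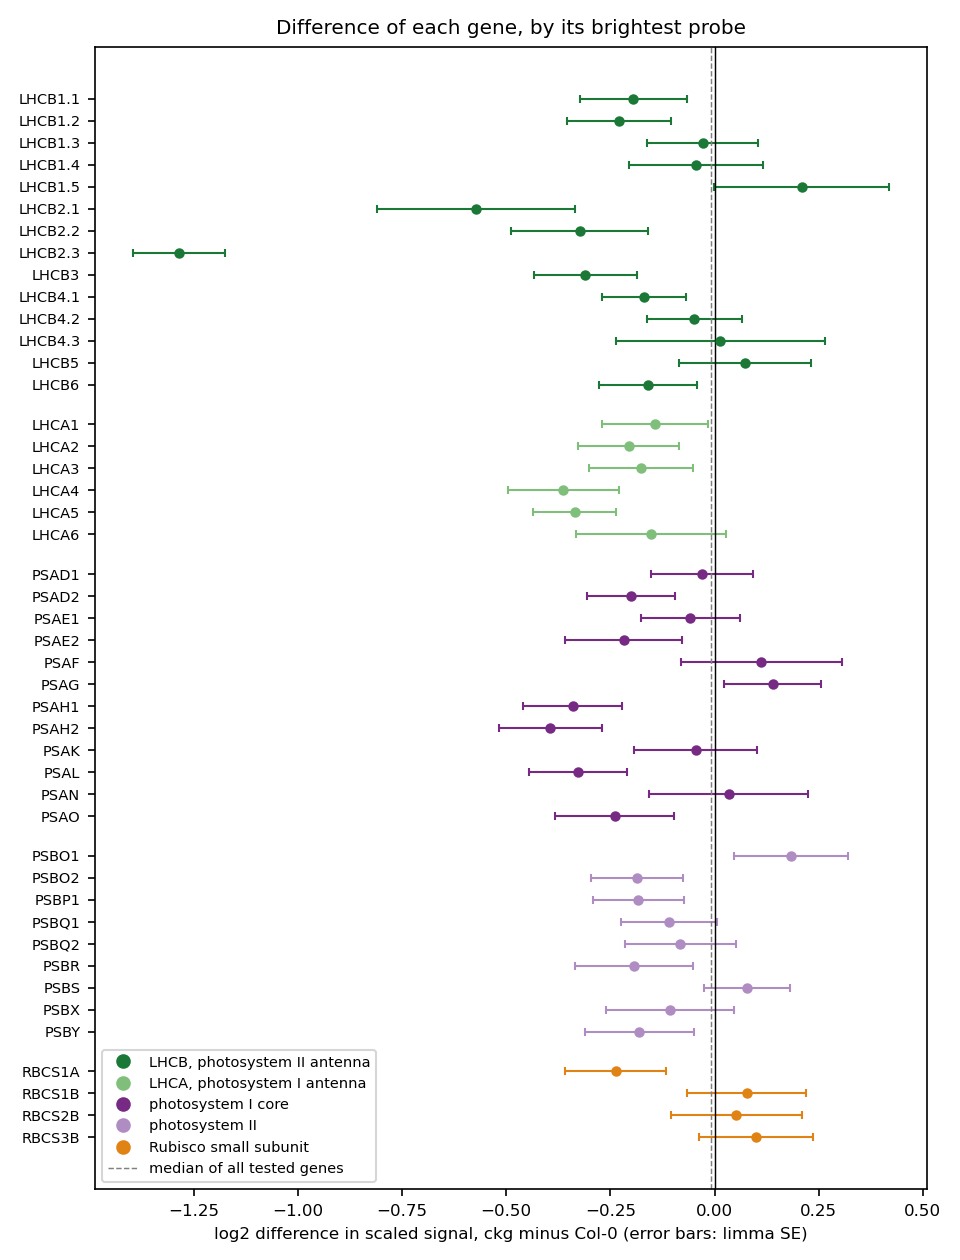
Points give the log2 difference in scaled signal, ckg minus Col-0, of each of the 45 genes by its brightest probe, with bars for limma's standard error (3 ckg and 2 Col-0 arrays), coloured by class. Most points lie left of the dashed median of all tested genes at -0.01, LHCB2.3 lies alone at -1.29, and 3 of the 4 RBCS genes lie right of 0 here but left of it with normexp background correction.

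Among the antenna genes of photosystem II, the LHCB2 and LHCB3 genes had the most negative differences, and the LHCB1 genes ranged from -0.23 to 0.21. LHCB1, LHCB2 and LHCB3 proteins form the trimers of the major antenna, light-harvesting complex II, which can move between the photosystems. The scaled log2 signal of LHCB2.3 (AT3G27690, chromosome 3) was 4.29, 4.29 and 4.39 on the ckg arrays, against 5.52 and 5.70 on the Col-0 arrays. The 3 ckg arrays lay close together and more than 1 log2 unit below both Col-0 arrays. The difference was -1.29 ± 0.11 (limma SE, n = 3 and 2; 95% interval -1.57 to -1.003), with a limma adjusted p of 0.0745. Across the 15 alternative settings it ranged from -1.57 to -1.20 and its adjusted p from 0.0604 to 0.394, so the gene had the same sign throughout and did not pass the threshold in any of them. By the brightest probe it was the sole gene of the 45 at least 2-fold lower in ckg, against 1.01% of all tested genes.

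LHCB2.2 (AT2G05070) had 6.05, 6.26 and 6.52 on the ckg arrays, against 6.59 and 6.61 on the Col-0 arrays, a difference of -0.32 ± 0.16 (SE). LHCB2.1 (AT2G05100), which lies on chromosome 2 with 5 genes between it and LHCB2.2, had -1.26, -1.001 and -0.68 on the ckg arrays, against -0.66 and -0.15 on the Col-0 arrays, a difference of -0.57 ± 0.24 (SE). By the brightest probe of both genes, all ckg arrays lay below both Col-0 arrays, and ckg replicate 3 came closest to Col-0. The limma adjusted p was 0.358 for LHCB2.2 and 0.290 for LHCB2.1. LHCB3 (AT5G54270), which joins LHCB1 and LHCB2 in part of the trimers, had 6.05, 5.99 and 6.26 on the ckg arrays, against 6.44 and 6.39 on the Col-0 arrays. Its arrays did not overlap between genotypes either, and its difference of -0.31 ± 0.12 (SE) had a limma adjusted p of 0.279.

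The 5 LHCB1 genes encode the most abundant proteins of the trimer and had a median difference of -0.04. LHCB1.2, LHCB1.1 and LHCB1.3 are direct neighbours on chromosome 1, and LHCB1.5 and LHCB1.4 on chromosome 2. LHCB1.2 (AT1G29910) had 6.74, 6.67 and 6.95 on the ckg arrays, against 7.02 and 7.02 on the Col-0 arrays, and was the one LHCB1 gene with no overlap between genotypes. The other LHCB1 genes overlapped, with differences of -0.20 ± 0.13 for LHCB1.1, -0.03 ± 0.13 for LHCB1.3, -0.04 ± 0.16 for LHCB1.4 and 0.21 ± 0.21 for LHCB1.5 (log2, SE). Averaged over all probes the differences were -0.49 for LHCB1.1, -0.27 for LHCB1.4 and -0.33 for LHCB1.5, whose sign thus turned. LHCB1.5 had 2 probes above 0 (0.21 and 0.06) and 2 below (-0.56 and -1.04), and the other 3 LHCB1.4 probes lay between -0.43 and -0.29. These genes are close copies of each other and probe sequences were not used here, so signal shared between copies cannot be told apart from signal of each gene.

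The minor antenna proteins connect the trimers to the photosystem II core as monomers. LHCB4.1 (AT5G01530, a CP29 gene) had 5.60, 5.65 and 5.67 on the ckg arrays, against 5.86 and 5.76 on the Col-0 arrays, a difference of -0.17 ± 0.10 (SE) with no overlap. The other minor antenna genes overlapped between genotypes. Their differences were -0.05 for LHCB4.2, 0.01 for LHCB4.3, 0.07 for LHCB5 (CP26) and -0.16 for LHCB6 (CP24). The other LHCB4.2 probes had -0.40, -0.42 and -0.47, those of LHCB5 -0.08 and -0.45, and those of LHCB4.1 ran from -0.34 to 0.65. Averaged over all probes the differences were -0.34 for LHCB4.2, -0.15 for LHCB5, -0.07 for LHCB4.1 and 0.36 for LHCB6. Over all 14 LHCB genes the median was -0.16, and 11 (78.6%) were negative, against 51.3% of all tested genes. In 6 (42.9%) ckg was lower without overlap, against 22.6% of all genes with a value on every array. At an unadjusted p under 0.05, 1 (LHCB2.3, 7.14%) was lower, against 9.81%.

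The 6 LHCA genes encode antenna proteins of photosystem I. All 6 (100%) had negative differences, against 51.3% of all tested genes, with a median of -0.19. LHCA4 (AT3G47470), which pairs with LHCA1 and holds red-shifted chlorophylls, had 6.08, 6.06 and 6.35 on the ckg arrays, against 6.49 and 6.56 on the Col-0 arrays. The ckg arrays were lower without overlap, ckg replicate 3 by the least, and the difference was -0.36 ± 0.13 (SE), 1.29-fold lower, with a limma adjusted p of 0.253. With normexp and with the authors' series table it was -0.22 in both, no longer at an unadjusted p under 0.05. LHCA5 (AT1G45474), a scarce antenna protein involved with LHCA6 in linking photosystem I to the NADH dehydrogenase-like complex, had 3.89, 3.93 and 3.87 on the ckg arrays, against 4.28 and 4.18 on the Col-0 arrays. Its ckg arrays were close together and below both Col-0 arrays, and the difference was -0.34 ± 0.10 (SE), with a limma adjusted p of 0.2003. The remaining genes had differences of -0.14 for LHCA1, -0.21 for LHCA2, -0.18 for LHCA3 and -0.15 for LHCA6. Of these, LHCA2 alone had no overlap between genotypes. LHCA6 was lower on ckg replicate 1 (4.34) than on the other 2 ckg arrays (4.78 and 4.82), which lay beside the Col-0 arrays (4.83 and 4.76).

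**Figure D2:**
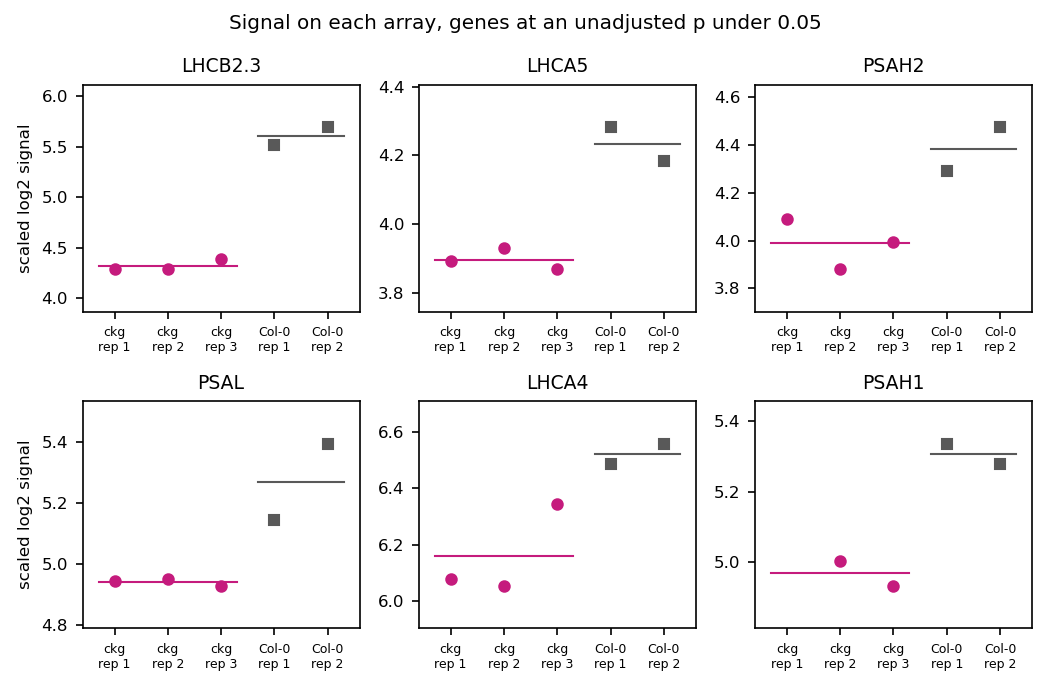
Each panel shows 1 of the 6 genes that were lower in ckg at an unadjusted p under 0.05, as scaled log2 signal on each array (circles, ckg; squares, Col-0; lines, group means), with a separate vertical axis that does not start at 0. In every panel the ckg points lie below the Col-0 points, LHCB2.3 spans the widest gap, and PSAH1 has no value on ckg replicate 1.

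Of the 12 photosystem I genes, 9 (75%) had negative differences, against 51.3% of all tested genes, and the median was -0.13. PSAH2, PSAL and PSAH1 (25%) were lower at an unadjusted p under 0.05, against 9.81%. PSAH and PSAL proteins sit together on the side of photosystem I where light-harvesting complex II docks. PSAH2 (AT1G52230) had 4.09, 3.88 and 3.99 on the ckg arrays, against 4.29 and 4.48 on the Col-0 arrays, a difference of -0.39 ± 0.12 (SE; limma adjusted p 0.208). PSAL (AT4G12800) had 4.94, 4.95 and 4.93 on the ckg arrays, against 5.15 and 5.39 on the Col-0 arrays, a difference of -0.33 ± 0.12 (SE; limma adjusted p 0.249). Neither gene overlapped between genotypes, and in PSAL the Col-0 arrays were further apart than the ckg arrays. The PSAL difference was -0.095 with normexp and -0.076 with the authors' series table, neither at an unadjusted p under 0.05. PSAH1 (AT3G16140) had 5.003 and 4.93 on ckg replicates 2 and 3, against 5.34 and 5.28 on the Col-0 arrays, a difference of -0.34 ± 0.12 (SE, limma adjusted p 0.263). Its spot on ckg replicate 1 was an outlier spot and was left out, and with that spot kept the difference was -0.76. Its other probe gave -0.15, and neither value was at an unadjusted p under 0.05.

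PSAO, another subunit near the docking site, had a difference of -0.24 ± 0.14 (SE) and overlapped between genotypes. PSAD and PSAE, on the stromal side where ferredoxin binds, are each encoded by a pair of genes. In both pairs the second gene had the more negative difference, -0.20 for PSAD2 against -0.03 for PSAD1 and -0.22 for PSAE2 against -0.06 for PSAE1, with standard errors of 0.10 to 0.14. PSAD2 alone of these 4 had no overlap. PSAF and PSAN, on the side where plastocyanin docks, had differences of 0.11 and 0.03, and PSAG and PSAK, at the edges of the complex, 0.14 and -0.05. The sign of PSAG turned with normexp (-0.014) and with all probes averaged (-0.33), and its other 3 probes had -0.43, -0.50 and -0.53. PSAF also lacks the value of ckg replicate 1, an outlier spot, and its difference was -0.05 with that spot kept.

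The 9 photosystem II genes had a median difference of -0.11, and 7 were negative (77.8%, against 51.3% of all tested genes). None was lower or higher at an unadjusted p under 0.05, against 9.81% and 8.3%. The oxygen-evolving complex, which covers the manganese cluster that splits water, is represented by PSBO, PSBP and PSBQ. PSBO1 (AT5G66570) had 6.78, 6.90 and 7.12 on the ckg arrays, against 6.78 and 6.72 on the Col-0 arrays, and its paralog PSBO2 (AT3G50820) had 6.24, 6.22 and 6.32 on the ckg arrays, against 6.36 and 6.54 on the Col-0 arrays. The paralogs thus differed in sign, 0.18 ± 0.14 for PSBO1 and -0.19 ± 0.11 for PSBO2 (SE), neither apart from 0 by its 95% interval, and the difference between them was not tested. The ckg arrays of PSBO2 lay below both Col-0 arrays. PSBP1 (-0.18) had no overlap, while PSBQ1 (-0.11) and PSBQ2 (-0.08) overlapped. PSBR, PSBX and PSBY, other small subunits, had differences of -0.19, -0.11 and -0.18. PSBS, which triggers the release of excess excitation as heat, had 0.08.

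The 4 RBCS genes showed no common direction, with a median difference of 0.06, which was -0.11 with normexp background correction. RBCS1A (AT1G67090) had 6.96, 6.88 and 7.14 on the ckg arrays, against 7.20 and 7.27 on the Col-0 arrays, a difference of -0.24 ± 0.12 (SE; 95% interval -0.55 to 0.07; limma adjusted p 0.362). The 3 RBCS genes clustered on chromosome 5, RBCS1B, RBCS2B and RBCS3B, had differences of 0.08, 0.05 and 0.10, all overlapping between genotypes and all negative (-0.056 to -0.13) with normexp. RBCS1B and RBCS2B are direct neighbours, RBCS3B has 2 genes between it and RBCS2B, and the close similarity of the copies limits how well probes separate them. RBCS3B had 7.10, 6.95 and 7.30 on the ckg arrays, against 6.99 and 7.03 on the Col-0 arrays, so ckg arrays lay on both sides of Col-0.

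The range over the ckg arrays was wider than the median difference between genotypes in all 5 classes. With the mean of the 5 arrays subtracted from each gene, the LHCB median was -0.14, -0.11 and 0.07 on ckg replicates 1, 2 and 3, against 0.11 and 0.07 on the Col-0 arrays. The LHCA median was -0.18, -0.10 and 0.07 on the ckg arrays, against 0.11 and 0.16 on the Col-0 arrays. For photosystem I the ckg arrays had -0.11, -0.12 and 0.10, against 0.08 and 0.10 on the Col-0 arrays. On ckg replicate 3 the LHCB and photosystem medians thus lay within or above the Col-0 values, and the LHCA median just below them. The photosystem II median was -0.12, -0.12 and 0.08 on the ckg arrays, against 0.03 and 0.09 on the Col-0 arrays, and the RBCS median was -0.10, -0.12 and 0.23, against -0.04 and -0.01. The median of all tested genes stayed between -0.01 and 0.02 on every array.

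ckg replicate 3 was the highest of the ckg arrays for 39 of 43 genes with all values (90.7%), against 43.4% of all tested genes. On ckg replicates 1 and 2, 30 of the 43 genes (69.8%) lay below both Col-0 arrays and 0 above both, against 31.8% below and 26.4% above among all tested genes. Without ckg replicate 3, 39 of the 45 genes were negative with a median of -0.22. Of the 45, 13 were lower at an unadjusted p under 0.05, a larger share than the 12.9% of all tested genes. In that fit the RBCS median was -0.05 and the photosystem II median -0.22. The lower share of spots well above background on ckg replicate 3 stands beside these values, and its part in them was not tested.

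**Figure D3:**
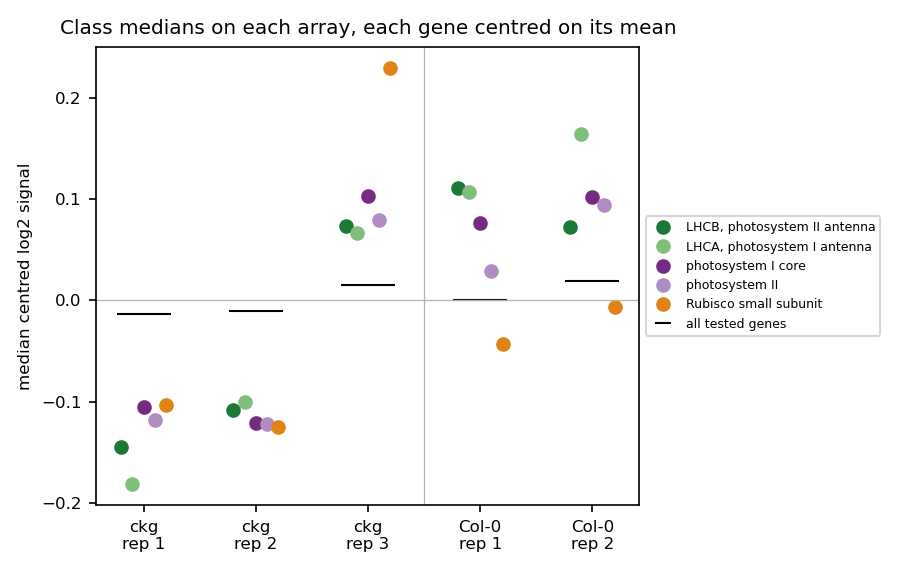
Points give, for each array, the median over the genes of a class with the mean of the 5 arrays subtracted from each gene (log2 units), and black dashes the median over all tested genes. ckg replicates 1 and 2 lie below 0 in every class (-0.18 to -0.10), ckg replicate 3 lies above 0 in every class, and RBCS on ckg replicate 3 is the highest point at 0.23.

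Probes of the same gene were compared over all 148 probes matched to the 45 genes, each of which was measured well enough to be tested. Of the 103 probes other than the brightest, 76 had the sign of the brightest probe and 27 the opposite sign, and 23 lay over 0.5 log2 units away from it. Among the 37 genes with several probes, all probes were negative in 21, none had all probes positive, and 16 were mixed. By class, in the LHCA genes 13 of 13 other probes shared the sign, 1 of them (of LHCA1) through 1 low ckg spot. In photosystem II genes 12 of 15 shared it, in LHCB genes 27 of 37, in RBCS genes 14 of 22 and in photosystem I genes 10 of 16. At the level of single probes, 43 of 148 (29.1%) were lower in ckg at an unadjusted p under 0.05, against 8.62% of the 28791 tested probes, and 2 were higher, against 7.46%. No probe passed an adjusted p of 0.05 in limma (0 of 28791). Probes of 1 gene and of close paralogs share their transcripts and arrays, so these are counts and not independent measurements.

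By class, 11 of 19 LHCA probes (57.9%), 21 of 51 LHCB probes (41.2%), 8 of 28 photosystem I probes (28.6%), 3 of 24 photosystem II probes (12.5%) and 0 of 26 RBCS probes were lower at that level. The share of all tested probes was 8.62%, and the photosystem II share was near it. Both LHCB2.3 probes were among the lower LHCB probes, with log2 differences of -1.29 and -1.57. The dimmer one had 2.50, 2.39 and 2.29 on the ckg arrays, against 3.90 and 4.04 on the Col-0 arrays. All 6 LHCA4 probes were negative, between -0.87 and -0.16, as were all 5 LHCA1 probes, between -0.96 and -0.09, and all 4 LHCB3 probes, between -1.16 and -0.31. For LHCA1, 1 probe lacked ckg replicate 1 and Col-0 replicate 2. It had 3.73 and 5.59 on ckg replicates 2 and 3, against 5.41 on Col-0 replicate 1. Its difference of -0.74 ± 0.92 (SE) thus rests on the low spot of ckg replicate 2. For the 13 RBCS1A probes the differences ran from -0.27 to 0.19, with 8 negative and 5 positive, so the negative value of its brightest probe was not shared by all.

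LHCB2.2 had probes of opposite direction. Its second brightest probe had 6.74, 6.75 and 7.02 on the ckg arrays, against 5.07 and 6.33 on the Col-0 arrays (1.14 ± 0.38, SE), while its 2 dimmer probes had differences of -1.51 and -1.04. The Col-0 arrays of that probe lay further apart than its ckg arrays. The second probe of LHCB6 was the other probe that was higher at an unadjusted p under 0.05, with 6.58, 6.72 and 6.93 on the ckg arrays, against 4.79 and 5.44 on the Col-0 arrays (1.63 ± 0.23, SE), where the remaining probes of the gene had -0.16 and -0.40. In LHCB1.3 and PSAE1 a single low spot on Col-0 replicate 2 set 1 probe apart. That LHCB1.3 probe had 7.10, 7.13 and 7.34 on the ckg arrays, against 7.20 and 4.36 on the Col-0 arrays, and that PSAE1 probe had 6.45, 6.45 and 6.57, against 6.57 and 3.47.

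The size of the difference varied with the brightness of the probe in the antenna genes. Probes were binned by mean scaled log2 signal over the arrays. The 20 antenna probes under 4 had a median difference of -0.55, the 20 between 4 and 6 had -0.43 and the 30 at 6 and over had -0.17. Over all tested probes the medians in these bins were -0.03, -0.03 and -0.01. Of these antenna probes, 13 of 20, 12 of 20 and 7 of 30 were lower in ckg at an unadjusted p under 0.05, against 8.63%, 9.1% and 5.18% of all tested probes in the same bins. All 26 RBCS probes were at 6 and over, with a median of 0.04, so no dimmer probe of these genes was available. Photosystem probes gave -0.40, -0.20 and -0.10 in the 3 bins, the first 2 resting on 10 and 17 probes.

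Within genes, the dimmest probe was more negative than the brightest in 16 of 17 antenna genes (94.1%), and in 67.0% of all 5532 genes with several tested probes. The medians in these antenna genes were -0.52 for the dimmest and -0.18 for the brightest probe, against -0.11 and -0.0037 over all such genes. Over all 37 genes of the group with several probes the count was 25 (67.6%), a share near the background, with 0 of 4 RBCS genes and 3 of 8 photosystem II genes. Without ckg replicate 3 the antenna medians by bin were -0.52, -0.40 and -0.23, against -0.013, -0.033 and -0.068 over all tested probes. No spot on any array was saturated by the scanner flag, and the highest signal of a brightest probe was 406943 (Col-0 replicate 1), against a lowest saturation value of 778202. The part of probe brightness, and of the stretch of transcript a probe covers, in these differences was not tested.

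**Figure D4:**
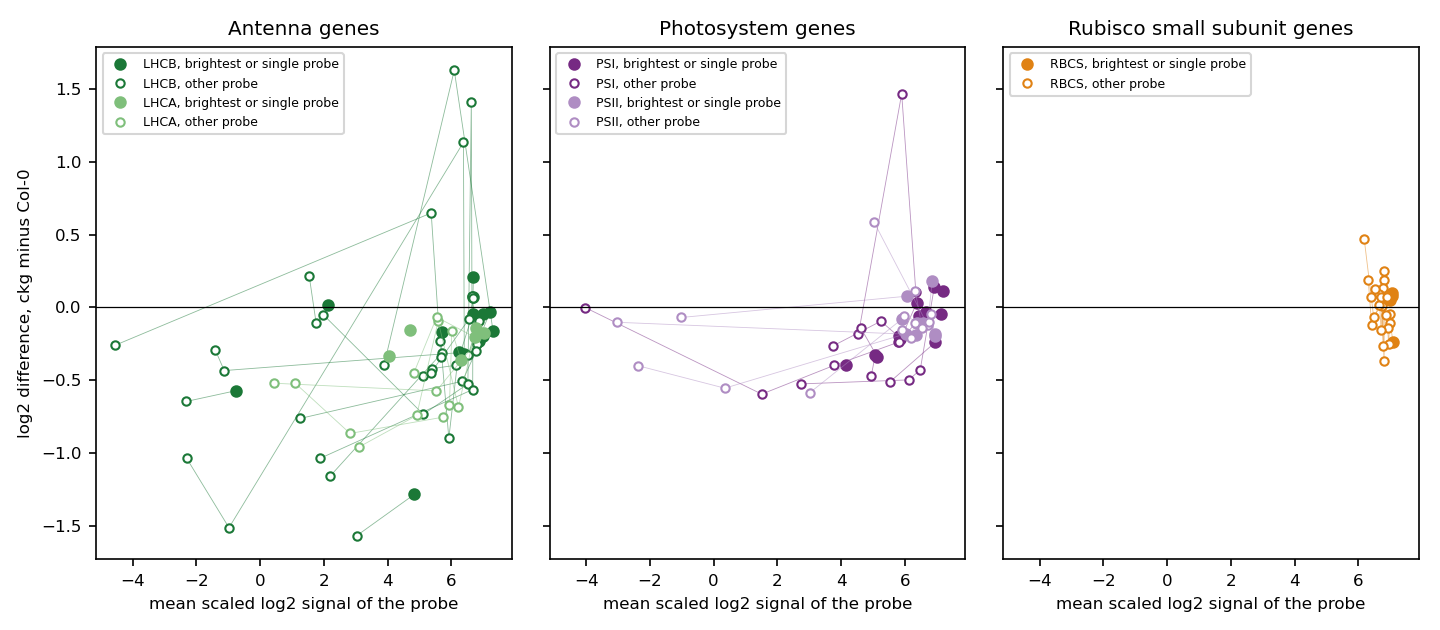
Each point is 1 probe, with its mean scaled log2 signal over the 5 arrays on the horizontal axis and its log2 difference, ckg minus Col-0, on the vertical axis; filled points are the brightest or only probe of a gene, and lines join probes of a gene. Antenna probes under 4 have a median of -0.55 and those at 6 and over -0.17, the highest LHCB point is the second LHCB6 probe at 1.63, and RBCS probes all lie at 6 and over.

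Other genes of the photosynthetic apparatus were read from lists beside the 45. Among 8 further photosystem genes the median was -0.16, and 6 (75%) were negative, against 51.3% of all tested genes. Of the 8, 2 (25%) were lower at an unadjusted p under 0.05, against 9.81%. These were PSBP2, a PsbP paralog, at -0.64 ± 0.11, and ELIP2, an early light-induced protein gene, at -0.51 ± 0.14, followed by PSB27, an assembly factor of photosystem II, at -0.29 ± 0.14 (log2, SE). Limma's adjusted p was 0.114 for PSBP2 and 0.177 for ELIP2. The signal of ELIP2 was low, between -4.96 and -4.67 on the ckg arrays and -4.41 and -4.29 on the Col-0 arrays, and its sign turned under another background correction (0.02).

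The electron transport and ATP synthase genes had a median of -0.02 with 7 of 13 negative (53.8%, against 51.3% of all tested genes). None was lower or higher at an unadjusted p under 0.05, against 9.81% and 8.3%. PETE1, a plastocyanin gene, had -0.37 ± 0.16, PGR5, of cyclic electron flow, 0.43 ± 0.19, and PETM, of the cytochrome b6f complex, 0.60 ± 0.31 (log2, SE). PETM had 6.19, 6.16 and 6.61 on the ckg arrays, against 6.17 and 5.26 on the Col-0 arrays, so its difference rests largely on Col-0 replicate 2. Across the alternative settings it ranged from 0.15 to 1.06. FNR1, named after its values were seen, had 5.98, 6.08 and 6.31 on the ckg arrays, against 6.21 and 2.72 on the Col-0 arrays, so its difference of 1.66 ± 0.99 rests on Col-0 replicate 2. Of 16 Calvin-Benson cycle genes, 6 (37.5%) were negative, the median was 0.05 and none had an unadjusted p under 0.05. RPI3, a ribose 5-phosphate isomerase gene, had -0.24 ± 0.15, TPI -0.17 ± 0.11 and PRK -0.14 ± 0.11 (log2, SE). Like the RBCS genes, these had a median close to that of all tested genes.

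Among 12 regulators and assembly factors, 5 were negative (41.7%, against 51.3% of all tested genes) and the median was 0.05. HY5, a light-signalling transcription factor, had -0.06, 0.13 and 0.85 on the ckg arrays, against -0.59 and -0.50 on the Col-0 arrays. All ckg arrays lay above both Col-0 arrays, and the difference was 0.85 ± 0.29 (SE, limma adjusted p 0.229). The paralogs GLK1 and GLK2, transcription factors that drive antenna genes, had opposite differences, -0.34 ± 0.14 for GLK1 and 0.35 ± 0.19 for GLK2, which was named after its values were seen. ALB3, which inserts antenna proteins into the thylakoid, had -0.25 ± 0.10 (log2, SE). The limma adjusted p was 0.290 for GLK1, 0.391 for GLK2 and 0.288 for ALB3. None of 8 listed plastid-encoded genes matched a probe, and they were not analysed here.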

How the data were processed

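Cotyledon RNA of 3 ckg and 2 Col-0 samples was measured on 1-colour Cy3 Agilent arrays. Per the file headers, Agilent Feature Extraction 10.7.1.1 turned each image into spot values. The deposited processed intensity was background-subtracted by that software and not scaled between arrays. A series table deposited by the authors gives log2 values of a scale that is not stated. Its ranks within each array equalled those of the median intensity and its median was 8.41 on each array, so its centring is the same for all arrays. It served as an alternative.

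Here, log2 processed intensity minus the 75th percentile over each array's 43803 non-control spots was used. Outlier spots (35 to 197 per array) were dropped and spots of a probe averaged. Probe accessions, without versions, were matched to loci through the TAIR10.1 gene table, which 34358 of 43603 probes did. That table gave names, chromosomes and gene order. The build behind the array design was not matched to it, so no coordinates are given. A gene was its probe of highest mean signal, tested where well above background on all arrays of at least 1 group. One fit of ckg minus Col-0 was made with limma 3.58.1 (lmFit, eBayes, two-sided) in R 4.3.3, and p-values were adjusted by Benjamini-Hochberg over 18123 genes. It was tested on simulated data. The residual degrees of freedom are 3, so the number of arrays limits precision, and an exact permutation test of 1 value could not go below 0.1.

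The 45 genes and the other lists were chosen with earlier results of these data known. All 45 may be named. Of each other list the 3 genes of smallest unadjusted p, and markers well above background on all arrays, were named. Outside that rule, FNR1, GLK2 and the markers that were not well above background on all arrays were named after their values were seen. Alternatives changed the background correction, scaling, filter, probe, outlier spots, variance model and replicates. The normexp correction used the median signal, since the scanner files hold no mean signal column. The tested genes and probes were kept as above unless they were what was changed. The labels gave the groups and the replicate numbers, and the series design calls the samples biological replicates.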

Additional observations from a re-analysis of the deposited data

How the results depend on the processing

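No gene of the 45 passed an adjusted p of 0.05 in limma under any of the 15 alternatives in which it was fitted (smallest 0.0604, with a trended and robust variance), and 23 of the 45 kept their sign in all of those. The replicate block left out PSAF and PSAH1. The dimmest-probe setting and the single-probe counts without ckg replicate 3 were chosen after seeing the data. Across the whole array, 3 genes passed with normexp, 3 with the authors' series table, 4 with the trended variance and 0 to 8 with 1 array left out (8 without Col-0 replicate 1, 3 without ckg replicate 3, 1 without Col-0 replicate 2). Members lower at an unadjusted p under 0.05 numbered 3 of 45 with no filter, near the background of 5.04% of all genes. They numbered 17 of 45 with the mean of probes (background 9.79%), where 1 was higher, and 21 of 45 with the dimmest probe (9.11%). With 1 ckg array left out they numbered 13 of 45 without replicate 3 (12.9%) and 2 of 45 without replicate 2 (7.68%). The shares with the mean of probes, with the dimmest probe and without ckg replicate 3 were larger than their backgrounds. The LHCB median was -0.048 with the series table (all tested genes -0.039), -0.089 with quantile scaling (all tested genes -0.029), -0.30 with the mean of probes and -0.46 with the dimmest probe. The LHCA median was -0.38 and -0.48 in those 2 probe settings, and the photosystem I median -0.24 with the mean of probes. The photosystem II median was -0.22 with the replicate block, -0.044 with the series table, -0.072 with normexp and -0.22 to -0.091 with 1 array left out. The RBCS median turned sign with normexp (-0.11), the series table (-0.00075) and the replicate block (-0.049), and ran from -0.049 to 0.11 with 1 array left out. The cause was not tested, except that the block uses only replicates 1 and 2 of ckg. Deviations of ckg and Col-0 arrays of the same number correlated at -0.090 and -0.10. With 2 pairs this cannot decide whether the numbers pair. Under the block 5 of 43 members were lower at an unadjusted p under 0.05 (background 8.93%).

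Single genes that turned sign were LHCB5 -0.086, PSAG -0.014, RBCS1B -0.13, RBCS2B -0.056, RBCS3B -0.10 and ELIP2 0.023 with normexp, and LHCB1.3 0.033, LHCB1.4 0.015 and PSAD1 0.017 with quantile scaling. With the series table they were LHCB1.3 0.094, LHCB4.3 -0.0033, LHCB5 -0.018, PSAK 0.026, PSAO 0.029 and RBCS1B -0.032. With the mean of probes they were LHCB1.5 -0.33, LHCB5 -0.15, LHCB6 0.36, PSAE1 0.33, PSAG -0.33 and PSAN -0.14, and with outlier spots kept PSAF -0.047. With the replicate block they were LHCB5 -0.027, PSAN -0.076, RBCS1B -0.026 and RBCS2B -0.071. With the dimmest probe they were LHCB1.3 0.21, LHCB1.5 -1.04, LHCB5 -0.45, PSAG -0.53, PSAN -0.24, PSBR 0.11, PSBS -0.069 and RBCS1A 0.12. With 1 array left out, ranges that crossed 0 were LHCA6 -0.24 to 0.0027, LHCB1.3 -0.12 to 0.033, LHCB1.4 -0.17 to 0.052, LHCB1.5 -0.048 to 0.47, LHCB4.2 -0.10 to 0.0080, LHCB4.3 -0.21 to 0.20, LHCB5 -0.060 to 0.21, PSAD1 -0.079 to 0.044, PSAE1 -0.12 to 0.0017, PSAF -0.073 to 0.30, PSAK -0.16 to 0.028, PSAN -0.19 to 0.26, PSBQ2 -0.23 to 0.064, RBCS1B -0.026 to 0.16 and RBCS2B -0.071 to 0.13.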
